A study of Mus musculus with 6 samples.

Results

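Naive CD4 and naive CD8 T cells were compared within the same lymph node of the same mouse. The cells are those that the authors' deposited cell table names CD4+ Naive T (1703 cells) and CD8+ Naive T (1918 cells), together 3621 of 7300 distinct cells. UMIs (unique molecular identifiers, 1 per captured transcript) were summed per mouse and node for each class. With at least 20 cells required in a sum, 13 of 14 mouse-by-node pairs were used. The udLN of WT mouse 97, with 4 naive CD4 and 14 naive CD8 cells, was left out.

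The mice were pregnant Aire-DTR and WT dams mated to BALB/c males. In Aire-DTR mice the diphtheria toxin receptor makes cells that express Aire sensitive to the toxin. Dams of both genotypes were given toxin during the first 9 days of pregnancy, and tissue was taken at embryonic day 9.5. There were 4 Aire-DTR dams (mice 8, 36, 4 and 7) and 3 WT dams (mice 6, 97 and 1). In the cell table mouse 4 is marked resorbed, and the remaining 3 Aire-DTR dams are marked IUGR. Each dam gave brachial node (brLN) and uterine-draining node (udLN) cells, and the mice shared wells as 3 pools: mice 8 and 6 in pool 1, mice 36 and 97 in pool 2, and mice 4, 7 and 1 in pool LN. Neither the strain nor the age of the dams was stated. The labels give the sort as CD45+ CD3+ and the series design as CD45+, and the files also hold 2267 B cells.

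One well of pool LN was listed 2 times in the deposited matrix. Its 2127 cells appeared under both of 2 barcode suffixes, with 0 matrix entries and 0 labels that differed between the copies. Each cell was counted once here, so that the 9427 deposited rows became 7300 cells and 29210327 UMIs became 22833288. The well holds cells of mice 1, 4 and 7. Apart from this, 208 of 7089 barcodes occurred in more than 1 well, among them 61 of the 3560 barcodes of naive T cells. With the rows as deposited 920 genes differed between the lineages, and with that well left out 648, against 911 with each cell counted once.

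Mature T cells leave the thymus as CD4 cells, which read peptides on MHC class II, or CD8 cells, which read peptides on MHC class I. The choice is held by an opposition of transcription factors: ThPOK, encoded by Zbtb7b, keeps cells in the CD4 lineage, and Runx3 silences Cd4 and supports the CD8 programme. CD4 cells become helpers that instruct other cells, often through CD40 ligand, whereas CD8 cells become killers. Naive cells of both lineages recirculate through lymph nodes and have not yet met their antigen.

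The class names were checked on their markers. All 8 naive T cell markers were detected in both classes, at a summed level of 3506 to 4836 CPM (UMIs scaled to the depth of the sum) in the 13 naive CD4 sums and 3125 to 4336 CPM in the 13 naive CD8 sums. Of the 12 markers of memory or activated T cells, Gzmk was at 0 in both classes and S100a4 at 0 in naive CD4 sums, and the summed level was 195 to 468 CPM and 232 to 390 CPM. Regulatory T cell markers summed to 76.1 to 142 CPM in naive CD4 and 61.6 to 106 CPM in naive CD8, and B cell markers to 230 to 427 CPM and 311 to 509 CPM. Myeloid markers summed to 273.4 to 391.9 CPM and 218.7 to 368.9 CPM, and gamma delta T cell markers to 0 to 8.74 CPM and 0 to 3.59 CPM. NK cell markers, with Ncr1 and Klra8 at 0 in both and Prf1 among the other 3, summed to 11.8 to 49.7 CPM and 32.3 to 93.1 CPM. Red cell markers differed by pool. In naive CD4 sums they were at 0 to 16.0 CPM in pool LN, 679 to 954 CPM in pool 1 and 797 to 1409 CPM in pool 2. In naive CD8 sums of the same pools they were at 3.02 to 21.1 CPM, 699 to 1242 CPM and 539 to 994 CPM. Sums held 23 to 302 cells and 97324 to 955653 UMIs.

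The coreceptors themselves separated the classes in every sum. Cd4, the MHC class II coreceptor (chromosome 6, 124864692 to 124888221, GRCm38), ran from 183 to 395 CPM (median 233) in naive CD4 sums and from 0 to 9.10 CPM (median 1.53) in naive CD8 sums. Cd8a, the alpha chain of the MHC class I coreceptor (chromosome 6, 71373427 to 71379173), ran from 0 to 27.7 CPM (median 6.05) and from 728 to 878 CPM (median 849). Cd8b1, its beta chain (chromosome 6, 71322788 to 71337494), ran from 22.9 to 138 CPM (median 49.1) and from 1806 to 2435 CPM (median 2139). No naive CD4 sum overlapped any naive CD8 sum for these 3 genes. Cell by cell the split was less even. A Cd4 UMI was found in 44.7% of naive CD4 cells (95% Wilson interval 42.4 to 47.1%) and in 0.782% (0.475 to 1.29%) of naive CD8 cells, and in 1.4998% of B cells, where it counts as background. A Cd8b1 UMI was found in 98.6% (98.02 to 99.07%) of naive CD8 cells, in 8.75% (7.498 to 10.19%) of naive CD4 cells and in 3.57% of B cells. Median depths were 2903, 3446.5 and 2261 UMIs per cell in naive CD4, naive CD8 and B cells. Thinned to 1500 UMIs per cell, 27.1% of naive CD4 cells had a Cd4 UMI and 5.11% a Cd8b1 UMI, against 2.75% of B cells with a Cd8b1 UMI. Of the naive CD4 cells, 690 had UMIs of Cd4 and of neither Cd8 gene, 85 had UMIs of a Cd8 gene and not of Cd4, and 928 had both or neither. Of the naive CD8 cells, 1888 had Cd8 UMIs alone and 0 had Cd4 UMIs alone. The class names come from the authors' annotation, made by a method the labels do not describe. The p-values of the main gene test that follows therefore measure agreement over 13 mouse-by-node pairs of 7 mice. They compare classes already set apart by that annotation.

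Of 4052 genes tested, 911 differed between the lineages (22.5%), 431 of them higher in naive CD4 (10.6%) and 480 higher in naive CD8 (11.8%). Counts of called members in the gene lists below stand against these shares. Differences are log2 values of naive CD4 minus naive CD8, from edgeR's quasi-likelihood test with mouse and node as a block and Benjamini-Hochberg adjustment. Most were small. The median size among called genes was 1.31-fold, 34 genes were at least 2-fold higher in naive CD4 and 49 in naive CD8, and 9 and 18 were at least 4-fold higher. Genes that were called, lay on 1 side in all 13 pairs and had a mean log2 CPM above 4 numbered 244 (6.02% of those tested). The 2 nodes of a mouse are not independent, so both were also summed into 1 sum per mouse: 1158 of 6992 genes then differed (16.6%), with 862 of the 911 called again in the same direction. When the cells of these 2 naive classes were sorted by their own coreceptor UMIs, 518 of 2936 genes differed (17.6%). Of the 911 genes, 755 were tested there, 754 kept their direction and 488 were called. In this sort 690 naive CD4 and 1888 naive CD8 cells kept their lineage, and 85 naive CD4 cells changed it. It left out 928 naive CD4 and 30 naive CD8 cells. Most directions were therefore bound to agree, and the sort cannot test the annotation. In udLN alone the count was 384 and in brLN alone 795, and it was 188, 385 and 703 within pool 1, pool 2 and pool LN.

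**Figure D1:**
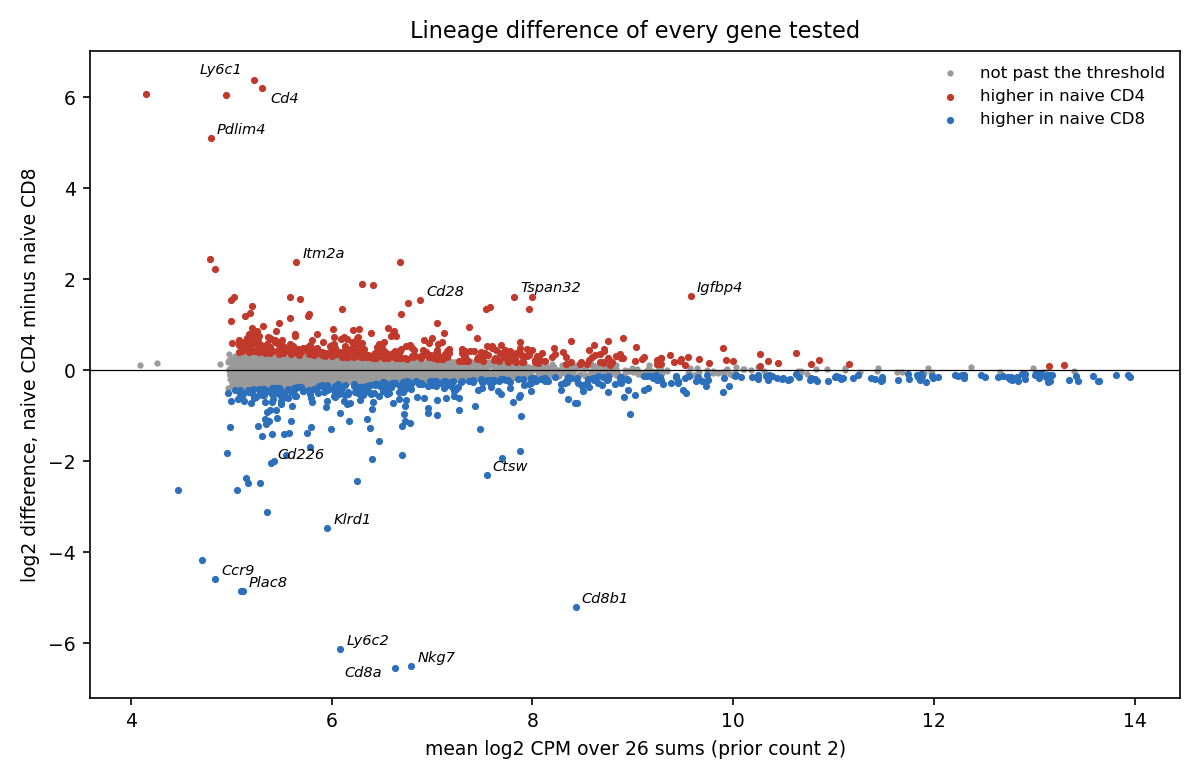
Each point is 1 of 4052 genes, with its mean log2 CPM over the 26 sums on the x axis and the log2 difference of naive CD4 minus naive CD8 on the y axis. Red and blue points are the 431 genes higher in naive CD4 and the 480 higher in naive CD8 at adjusted p below 0.05, and highly expressed genes lie mostly just below the line at 0.

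Lineage-defining transcription factors were unequal in a graded way. Zbtb7b (chromosome 3, 89377644 to 89394776) was found at 30.9 to 76.4 CPM (median 58.2) in naive CD4 sums and at 0 to 2.90 CPM in naive CD8 sums. The naive CD8 sums held 3 Zbtb7b UMIs in all against 255, a ratio of 113 in CPM (95% counting interval 38.2 to 551). Runx3 (chromosome 4, 135120652 to 135177990) was present in both lineages, at 33.7 to 75.8 CPM (median 50.7) in naive CD4 and 87.1 to 148 CPM (median 113) in naive CD8. It was higher in naive CD8 in 13 of 13 pairs without overlap, with a log2 difference of -1.06 (SE 0.11, adjusted p = 3.62e-13). Between these classes Zbtb7b was nearly confined to naive CD4 cells, whereas Runx3 was 2.09-fold higher in naive CD8 cells. Runx1, its relative, went the other way: 42.7 to 193 CPM (median 74.0) in naive CD4 against 18.8 to 58.5 CPM (median 31.2), a log2 difference of 1.19 (SE 0.14, adjusted p = 4.37e-11, 13 of 13 pairs).

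Of the 9 listed transcription factors of CD4 fate 8 were tested, and 5 were higher in naive CD4 and 0 in naive CD8 (median log2 difference 0.32, against 0.0055 over all genes). Beside Zbtb7b these were Gata3 (0.67), Satb1 (0.49), Tcf7 (0.37) and Lef1 (0.28). The list named for CD8 fate did not follow its name. Of its 9 members 5 were higher in naive CD4 (Runx1, Ets1 at 0.65, Stat5b at 0.63, Bcl11b at 0.54 and Patz1 at 0.47) and 2 in naive CD8 (Runx3 and Irf1 at -0.25). Ets1 and Bcl11b are transcription factors used by all T cells. Quiescence factors, which hold naive cells at rest, leaned to naive CD4: 8 of 12 tested were higher there, against 10.6% of all genes. Among the 8 were Btg2 (0.53), Bach2 (0.51), Slfn2 (0.48), Ikzf1 (0.42) and Foxo1 (0.34). Klf2, which controls exit from lymph nodes, was higher in naive CD8 (-0.17). Of 12 effector transcription factors only 3 passed the filter on low counts, and Id2 was called, at -0.47. Sorted by coreceptor UMIs, Id2 (-0.33, adjusted p = 0.0975) and Bach2 (0.36, adjusted p = 0.0733) did not pass. Foxo1 did not pass in udLN alone (0.23, adjusted p = 0.259). Eomes, a transcription factor of killer and memory cells, did not pass the filter. It had 191 UMIs in naive CD8 and 14 in naive CD4 sums, a ratio of 10.3 (95% counting interval 5.97 to 19.1), and with 1 sum per mouse its log2 difference was -3.38 (adjusted p = 9.39e-17).

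The pair of Ly6c genes divided the lineages between them. Ly6c1 and Ly6c2 encode near-identical cell surface proteins from neighbouring genes on chromosome 15 (75044018 to 75048830 and 75108158 to 75111970, both on the minus strand). Their upstream sequences are shown because the genes are close copies with opposite lineage patterns. The lines run 5′ to 3′ on the minus strand. Each is the part of the RefSeq window (GRCm38.p6, 250 bases before the start) that aligns with the other copy. They lie at chr15:75048838-75049056 and chr15:75111997-75112221, before the annotated genes but not directly next to them. Capitals mark bases that differ or have no partner in the other copy.
Ly6c1: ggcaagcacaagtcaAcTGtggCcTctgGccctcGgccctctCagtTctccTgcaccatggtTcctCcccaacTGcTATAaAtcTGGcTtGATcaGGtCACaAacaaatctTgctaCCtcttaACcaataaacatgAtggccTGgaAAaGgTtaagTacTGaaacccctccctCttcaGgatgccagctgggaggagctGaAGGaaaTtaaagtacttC
Ly6c2: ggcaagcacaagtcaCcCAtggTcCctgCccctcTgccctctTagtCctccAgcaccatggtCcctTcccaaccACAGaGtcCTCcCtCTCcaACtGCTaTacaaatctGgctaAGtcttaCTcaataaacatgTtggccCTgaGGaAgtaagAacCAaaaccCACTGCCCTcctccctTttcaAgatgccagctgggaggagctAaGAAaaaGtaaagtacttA
Of 216 aligned bases, 164 were identical (75.9%). Of the 31-base words in the last 400 bases of the Ly6c1 transcripts in GENCODE release 21 of the mouse series, 63.6% are absent from Ly6c2, and 45.0% the other way round, so reads can tell the copies apart only in part.

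Ly6c1 was found at 91.3 to 354 CPM (median 210) in naive CD4 sums and at 0 to 7.43 CPM in naive CD8 sums, 8 of which had 0. Ly6c2 was found at 0 to 76.2 CPM (median 4.54) in naive CD4 and at 328 to 631 CPM (median 466) in naive CD8. Neither gene overlapped between lineages in any sum. The single naive CD4 sum with Ly6c2 above 7.79 CPM was the udLN of mouse 8. The log2 differences were 6.38 (SE 0.17, adjusted p = 1.49e-44) for Ly6c1 and -6.13 (SE 0.14, adjusted p = 1.03e-48) for Ly6c2. In single cells, 519 of 1703 naive CD4 cells had UMIs of Ly6c1 alone, 15 of Ly6c2 alone, 5 of both and 1164 of neither. In naive CD8 cells 5 had Ly6c1 alone, 577 Ly6c2 alone, 3 both and 1333 neither, of 1918. B cells had a Ly6c1 UMI in 0.485% and a Ly6c2 UMI in 3.22% of cells against 0.417% of naive CD8 and 1.17% of naive CD4 cells. Thinned to 1500 UMIs, 21.8% of naive CD4, 0.319% of naive CD8 and 0.193% of B cells had a Ly6c1 UMI. A Ly6c2 UMI was then found in 23.4% of naive CD8, 0.678% of naive CD4 and 2.22% of B cells.

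**Figure D2:**
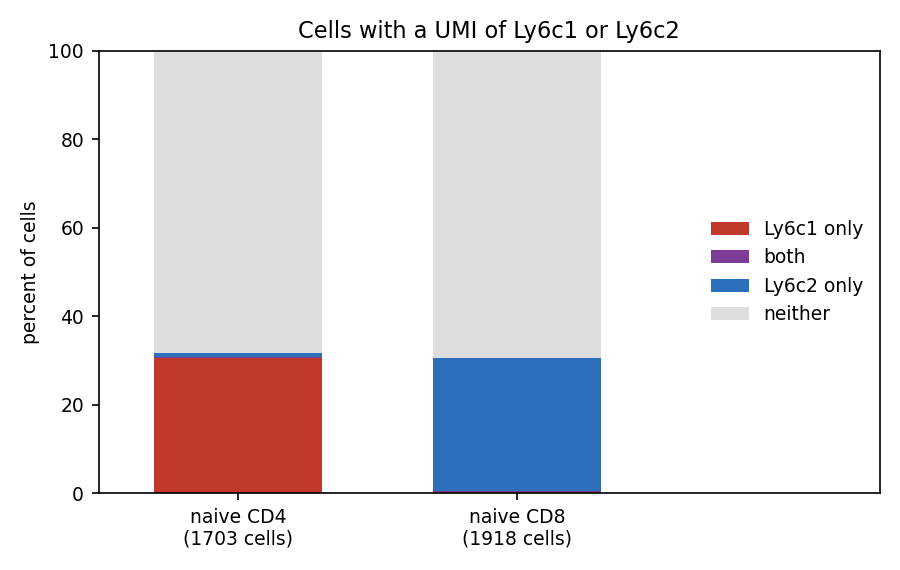
Percent of naive CD4 cells (1703) and of naive CD8 cells (1918) with UMIs of Ly6c1 alone, of both genes, of Ly6c2 alone or of neither. About equal shares of each lineage carried a Ly6c UMI, from Ly6c1 in 519 naive CD4 cells and from Ly6c2 in 577 naive CD8 cells.

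Among genes with the largest differences toward naive CD4 was 1 helper ligand. Cd40lg, which encodes CD40 ligand, the signal by which helper T cells license B cells and dendritic cells, was found at 105 to 203 CPM (median 165) in naive CD4 and at 0 to 6.50 CPM (median 0) in naive CD8. Its log2 difference was 6.05 (SE 0.21, adjusted p = 2.58e-38), in 13 of 13 pairs. A Cd40lg UMI was found in 33.1% of naive CD4 cells, 0.521% of naive CD8 cells and 0.926% of B cells. Of the 9 listed helper ligands only 3 were tested, and Tnfsf8 (-0.20) and Ltb (-0.0061) did not pass. Pdlim4, a cytoskeletal adaptor, was at 46.8 to 151 CPM (median 103) in naive CD4 and 0 to 13.4 CPM (median 2.60) in naive CD8, a log2 difference of 5.10 (SE 0.21). The other genes with the largest differences toward naive CD4 were Stmn1, which binds tubulin (2.45), the membrane protein gene Itm2a (2.37), Ptms (2.23), Izumo1r (1.91), Tesc (1.88), Igfbp4 (1.63) and the tetraspanin gene Tspan32 (1.62). Igfbp4, which encodes a binding protein of insulin-like growth factors, was at 935 to 1766 CPM (median 1279) in naive CD4 and 314 to 697 CPM (median 421) in naive CD8. For Cd40lg, Pdlim4 and these 7 genes, each naive CD4 sum lay above every naive CD8 sum.

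The killer-cell genes that could be tested were unequal among naive cells. Nkg7 (chromosome 7, 43437073 to 43438249), a granule membrane protein of cytotoxic lymphocytes, was at 0 to 21.6 CPM (median 9.08) in naive CD4 and at 796 to 968 CPM (median 912) in naive CD8. Its log2 difference was -6.49 (SE 0.10, adjusted p = 1.21e-61), and 84.8% of naive CD8 cells had a Nkg7 UMI, against 1.82% of naive CD4 and 2.91% of B cells. Of the 22 cytotoxic genes listed, 6 passed the filter on low counts, which a gene expressed in 1 lineage alone can pass. All 6 were higher in naive CD8: Nkg7, Klrd1 (-3.46), Cst7 (-2.43), Ctsw (-2.30), Prf1 (-1.11) and Srgn (-0.34). Klrd1 encodes CD94 of the NK receptor complex, Cst7 and Ctsw a cystatin and a cathepsin of killer cells, and Prf1 perforin. The other 16, including the 4 listed granzymes and Ccl5, were too low to be tested. With 1 sum per mouse, from the same cells and under the same filter, 8 members were tested and 7 called, all higher in naive CD8. Ccl5, at 3045 CPM in the memory CD8 class, was at 15.3 CPM over all naive CD8 cells and 6.35 CPM over all naive CD4 cells.

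Further genes nearly confined to naive CD8 cells were of mixed kind. Plac8 was at 0 to 14.2 CPM (median 3.90) in naive CD4 and 80.5 to 191 CPM (median 141) in naive CD8. It is not particular to T cells, since 38.2% of B cells had a Plac8 UMI. Cxcr6, a chemokine receptor known from memory cells, was at 0 to 12.97 CPM (median 4.46) against 113 to 207 CPM (median 141), with a log2 difference of -4.84 (SE 0.19). Ccr9, the receptor for the gut and thymus chemokine CCL25, was at 0 to 8.64 CPM (median 3.90) against 67.1 to 182 CPM (median 98.4), with a log2 difference of -4.59 (SE 0.20, adjusted p = 1.42e-31). Itgae, the integrin chain CD103, did not pass the filter. It had 337 UMIs in naive CD8 sums and 2 in naive CD4 sums, a ratio of 127 (95% counting interval 34.8 to 1051), and 14.1% of naive CD8 cells had an Itgae UMI. Lcn4 (-4.17), Ehd1 (-2.63), Cd79b (-2.62) and Rcn3 (-2.47) completed the genes with the largest differences toward naive CD8. Cd79b encodes a B cell receptor subunit. It had a UMI in 11.99% of naive CD8 and 1.82% of naive CD4 cells, whereas its partner Cd79a had one in 2.50% and 2.99%, and Ms4a1, another B cell marker, in 0.522% and 0.646%.

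**Figure D3:**
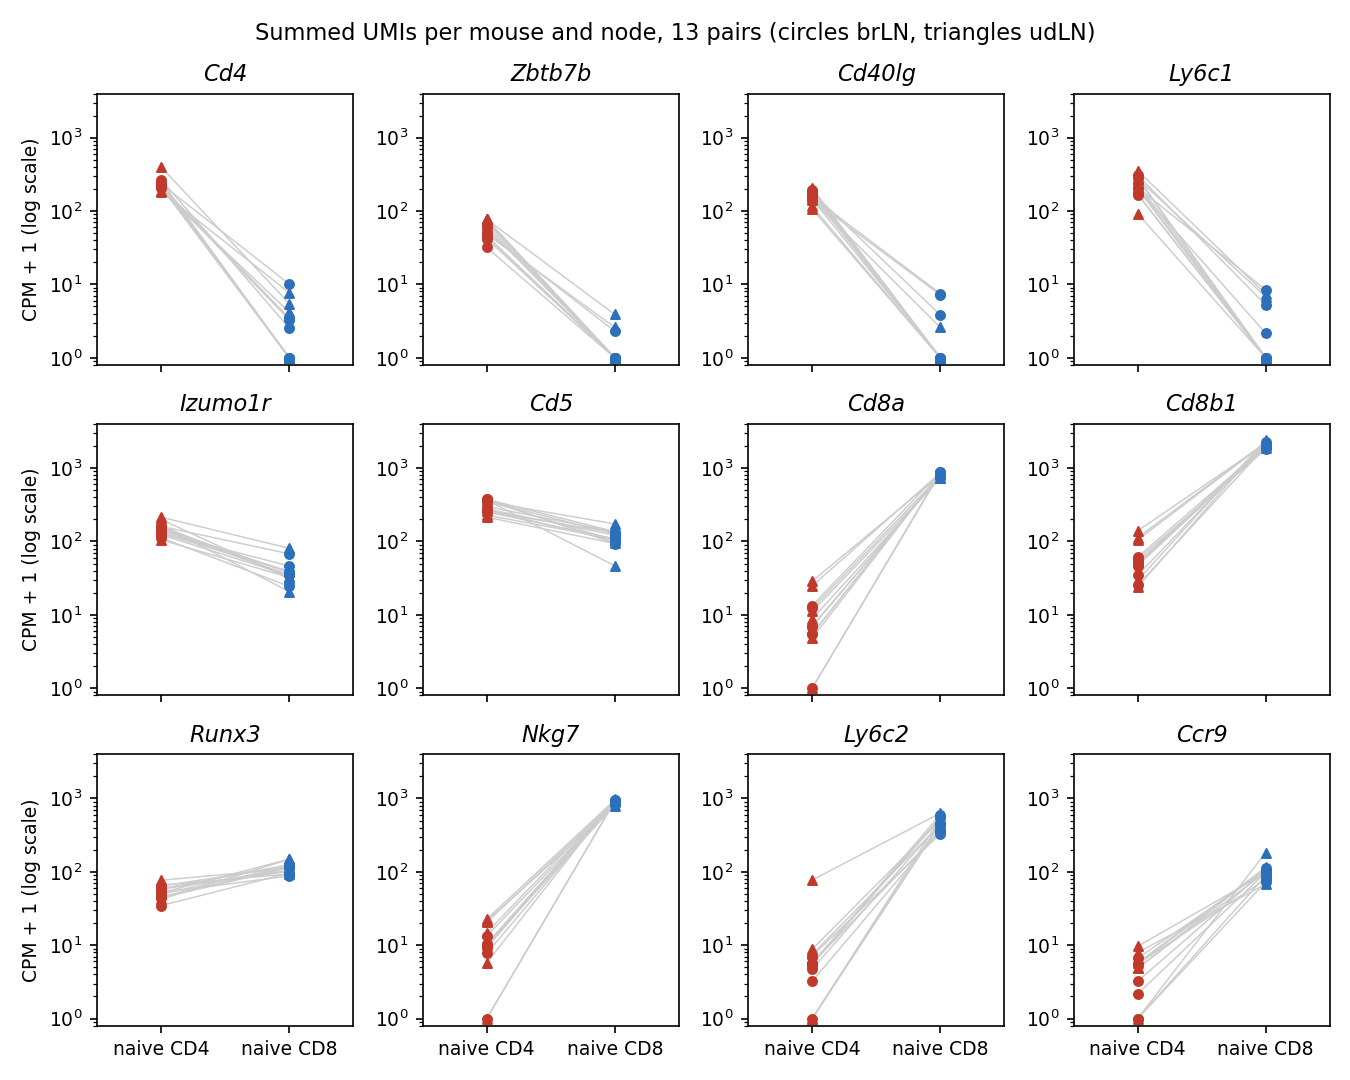
CPM plus 1 on a log axis for 12 genes, with naive CD4 sums in red and naive CD8 sums in blue, circles for brLN and triangles for udLN, and a line for each of the 13 pairs. Cd4, Zbtb7b, Cd40lg and Ly6c1 drop to or near 0 in naive CD8 sums, Cd8a, Nkg7, Ly6c2 and Ccr9 do so in naive CD4 sums, and Izumo1r, Cd5 and Runx3 are present in both.

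Upstream sequences of some of these genes hold the letters TGTGGT, the core of the motif bound by Runx proteins, or their reverse complement ACCACA. Within the 250 bases before the start, 4 of the 8 genes found in the table among the 12 with the largest differences toward naive CD8 held a match (Cxcr6, Ly6c2, Nkg7 and Plac8), and so did 3 of 9 among those toward naive CD4 (Izumo1r, Tspan32 and Zbtb7b). The same letters, on either strand, were found for 15.9% of 27025 genes in the RefSeq table (GRCm38.p6) and for 13.02% of the 3225 tested genes that it lists. Cd4, Cd40lg, Stmn1, Cd8b1, Klrd1, Ehd1 and Cd79b had no entry. The bases before the annotated gene are shown for 3 genes higher in naive CD8 and 1 higher in naive CD4, so that both sides can be compared, with the matches in capitals. They lie at chr7:43436888-43437072 (plus strand) for Nkg7, chr5:100572246-100572455 (minus strand) for Plac8, chr9:123806227-123806474 (plus strand) for Cxcr6 and chr7:143004796-143005045 (plus strand) for Tspan32.
Nkg7: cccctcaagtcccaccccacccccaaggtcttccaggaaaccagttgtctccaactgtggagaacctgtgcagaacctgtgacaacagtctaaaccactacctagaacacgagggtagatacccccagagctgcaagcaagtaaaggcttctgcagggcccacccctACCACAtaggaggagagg
Plac8: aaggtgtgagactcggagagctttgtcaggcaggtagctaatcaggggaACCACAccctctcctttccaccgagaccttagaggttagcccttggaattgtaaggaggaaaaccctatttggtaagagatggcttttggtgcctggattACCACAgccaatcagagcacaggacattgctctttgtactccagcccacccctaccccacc
Cxcr6: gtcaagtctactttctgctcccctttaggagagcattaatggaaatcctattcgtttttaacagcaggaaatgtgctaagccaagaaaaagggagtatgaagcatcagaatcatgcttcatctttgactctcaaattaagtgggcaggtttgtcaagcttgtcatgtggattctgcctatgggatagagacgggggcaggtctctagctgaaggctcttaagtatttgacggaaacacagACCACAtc
Tspan32: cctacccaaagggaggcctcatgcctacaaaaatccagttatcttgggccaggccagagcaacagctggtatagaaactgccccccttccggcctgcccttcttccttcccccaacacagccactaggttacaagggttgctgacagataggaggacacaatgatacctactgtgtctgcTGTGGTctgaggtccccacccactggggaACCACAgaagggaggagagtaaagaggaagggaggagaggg
Plac8 and Tspan32 held 2 matches each in these stretches, on opposite sides of the lineage difference. A match describes the letters and not a bound site.

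Genes that report the strength of antigen receptor signals were unequal in both directions. Cd5, an inhibitory receptor whose level is set by self-recognition in the thymus, was at 213 to 374 CPM (median 298) in naive CD4 and 45.5 to 172 CPM (median 108) in naive CD8. The log2 difference was 1.36 (SE 0.07, adjusted p = 3.99e-26), with no overlap. Izumo1r, which encodes folate receptor 4 and is used as a marker of self-reactive and anergic CD4 cells, was at 104 to 213 CPM (median 145) against 19.7 to 79.6 CPM (median 34.1). Of the 10 listed genes of self-reactivity and signal strength 6 were tested and all 6 differed, 3 in each direction: Ly6c1, Izumo1r and Cd5 toward naive CD4, and Ly6c2, Ifngr1 (-0.59) and Cd69 (-0.25) toward naive CD8. A shared side does not make these genes concordant. Within naive CD4 cells, Cd5 and Izumo1r were lower in cells with a Ly6c1 UMI in 7 of 7 mice, as described under other observations. The early response genes Nr4a1, Nr4a3, Egr1 and Egr2 were too low to be tested.

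Receptor components differed by little. All 7 genes of the T cell receptor complex were called: Trac (0.48), Cd247, the zeta chain (0.44), Trbc1 (0.27) and Trbc2 (0.23) toward naive CD4, and Cd3e (-0.19), Cd3d (-0.10) and Cd3g (-0.097) toward naive CD8. Trbc1 and Trbc2 are close copies, and their split is uncertain. When cells were sorted by coreceptor UMIs, 3 of the 7 were called, and Trbc2, Trbc1, Cd3d and Cd3g did not pass (adjusted p = 0.205, 0.305, 0.270 and 0.254). Of 19 tested proximal signalling genes 5 were called (Rasgrp1 0.58, Tespa1 0.39, Lat 0.25 and Skap1 0.21 toward naive CD4, Themis -0.40 toward naive CD8), a share close to the 22.5% of all genes. Themis did not pass when cells were sorted by coreceptor UMIs (-0.22, adjusted p = 0.351). Rasgrp1 did not pass in udLN alone (0.23, adjusted p = 0.367). Tespa1 did not pass in a fit without cells carrying B cell, myeloid or red cell markers or both coreceptors (0.21, adjusted p = 0.250). The kinases Lck (-0.0079) and Zap70 (0.070) did not pass. Among 16 inhibitors of receptor signals 5 were higher in naive CD4, with Cd5 first, then Cd6 (0.82), Dgka (0.42), Sit1 (0.26) and Csk (0.16), and 3 in naive CD8, Sla2 (-0.74), Ptpn22 (-0.57) and Ptpn6 (-0.19). Csk and Ptpn6 did not pass with 1 sum per mouse (adjusted p = 0.0605 and 0.0573) or with coreceptor-sorted cells (0.199 and 0.413). Variable segments of the receptor differed widely. Of 19 beta V segments tested 15 were called, 9 higher in naive CD4 and 6 in naive CD8, with log2 differences from -3.12 to 2.38. With 1 sum per mouse, 13 of 25 alpha V segments were called, 11 of them higher in naive CD4.

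Costimulatory receptors were split by lineage. Cd28, the main costimulatory receptor, was at 195 to 256 CPM (median 223) in naive CD4 and at 0 to 113 CPM (median 69.6) in naive CD8, without overlap (log2 difference 1.54, SE 0.09, adjusted p = 9.59e-24). Cd226, an adhesion and costimulatory receptor shared with NK cells, was at 0 to 32.4 CPM (median 14.6) against 67.9 to 107 CPM (median 79.8), again without overlap (-2.03, SE 0.15, adjusted p = 2.87e-19). Of 12 tested members 4 were higher in naive CD4 (Cd28, Icos at 0.52, Sh2d1a at 0.34 and Cd2 at 0.12) and 2 in naive CD8 (Cd226 and Cd48 at -0.40). For comparison, 22.5% of all genes tested were called. Icos did not pass without mouse 7 (adjusted p = 0.0634). Cd2 did not pass with 1 sum per mouse, with the rows as deposited or with coreceptor-sorted cells (adjusted p = 0.116, 0.0598 and 0.109), nor Sh2d1a with coreceptor-sorted cells (0.186).

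Cytokine receptors differed in both directions. Il2rb, the beta chain shared by the IL-2 and IL-15 receptors, was at 0 to 71.0 CPM (median 17.3) in naive CD4 and 49.2 to 122 CPM (median 75.2) in naive CD8. It was higher in naive CD8 in 12 of 13 pairs, with a log2 difference of -1.99 (SE 0.17, adjusted p = 1.73e-16). Toward naive CD4 were Il4ra (0.81), Il21r (0.31) and Il7r (0.19), so that 4 of 5 tested receptors of the common gamma chain family were called. Il7r did not pass without the block (adjusted p = 0.186). Il6ra, the IL-6 receptor chain, was at 122 to 188 CPM (median 160) in naive CD4 and 79.6 to 152 CPM (median 108) in naive CD8 (0.62, SE 0.08, adjusted p = 1.84e-09). In its list of 9 tested receptors it was the 1 member higher in naive CD4, and Il10rb (-0.77), Ifngr1 (-0.59) and Ifnar2 (-0.33) were higher in naive CD8. Ifnar2 did not pass in DESeq2, where its adjusted p was 0.0724, or with coreceptor-sorted cells (-0.14, adjusted p = 0.554). Of 10 TGF beta pathway genes 5 were tested, and 4 were higher in naive CD4: Tgfbr3 (1.41), Ski (0.73), Skil (0.60) and Tgfbr2 (0.39). Ski and Skil are inhibitors of the pathway and Tgfbr2 a signalling receptor. Among 11 tested JAK, STAT and SOCS genes, Pim1 (0.90), Stat5b (0.63), Socs3 (0.60) and Stat3 (0.35) were higher in naive CD4, and 3 were higher in naive CD8, among them Pim2 (-0.95) and Stat4 (-0.58). The kinases Pim1 and Pim2 thus differed in opposite directions. Socs3 did not pass in brLN alone (0.36, adjusted p = 0.126) or in pool LN alone (0.39, adjusted p = 0.0773).

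Migration genes were called for 9 of 13 tested, against 22.5% of all genes. Gpr183, the oxysterol receptor that places cells at the edge of follicles, was at 125 to 274 CPM (median 152) in naive CD4 and 49.5 to 73.6 CPM (median 63.9) in naive CD8, without overlap (1.25, SE 0.09, adjusted p = 1.85e-19). Itga6 (0.87), Itgb2 (0.29), Ccr7 (0.26) and S1pr1 (0.21) were also higher in naive CD4, and 4 were higher in naive CD8, among them Ccr9, Selplg (-0.43) and Klf2. Of 5 tested enzymes that modify surface glycans, 3 were higher in naive CD4: St6gal1 (0.74), St8sia1 (0.56) and St3gal1 (0.37). St3gal1 did not pass in DESeq2, without mouse 1 or without mouse 36, with adjusted p = 0.126, 0.0667 and 0.111.

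Genes of MHC class I presentation leaned to naive CD8, with 8 of 19 higher there and 1 in naive CD4 (median -0.18). Of all genes tested, 11.8% were higher in naive CD8 and 10.6% in naive CD4. These shares also apply to the interferon and AP-1 lists below. H2-Q6 (-1.23), Tapbpl (-1.12), Psmb10 (-0.55) and H2-Q7 (-0.55) had the smallest p-values. H2-Q6 and H2-Q7 are related class I genes: of the words at the end of H2-Q6 transcripts 68.2% are absent from H2-Q7, and 100% the other way round, so the split is less certain for H2-Q6. The classical genes H2-K1 (-0.032) and H2-D1 (0.013) did not pass. Type I interferon response genes were mixed, with 7 of 22 higher in naive CD8, such as Ifi214 (-0.90), Ifit3 (-0.68) and Bst2 (-0.42), and 3 in naive CD4: Slfn1 (0.63), Ifi27l2a (0.50) and Slfn5 (0.45). AP-1 and immediate early genes, which also respond to handling of tissue, were higher in naive CD4 for 8 of 13 tested and in naive CD8 for 0 (median 0.30). Examples were Ppp1r15a (0.59), Dusp1 (0.57), Zfp36 (0.57) and Junb (0.30). Sorted by coreceptor UMIs, 4 of 11 were called. A further fit left out 1524 naive cells. They carried a UMI of any of 7 B cell, myeloid or red cell markers, or of both Cd4 and Cd8b1. That fit kept 8 pairs of 5 mice, and Junb was at 0.13 (adjusted p = 0.405). Red cell markers were high in pools 1 and 2 and low in pool LN. In pool LN alone Junb was at 0.14 (adjusted p = 0.329). How far the smaller Junb value reflects mixed cells was not tested.

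Among 9 tested survival genes, Birc3 (0.50), Bbc3 (0.41) and Cflar (0.28) were higher in naive CD4 and Dapl1 (-0.72) in naive CD8. Calls for Bbc3 and Cflar were lost in DESeq2 (adjusted p = 0.336 and 0.165) and that for Birc3 as well (adjusted p = 0.0920). Without mouse 1, adjusted p was 0.0516, 0.117 and 0.0667 for Bbc3, Cflar and Birc3. Of 12 tested glycolysis genes 3 were called, a share close to the 22.5% of all genes: Pkm (0.56) and Ldha (0.14) toward naive CD4 and Pgam1 (-0.56) toward naive CD8. Ldha did not pass without mouse 1 (adjusted p = 0.0603).

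The most uniform difference was also one of the smallest. Of 81 tested ribosomal protein genes 70 were higher in naive CD8 and 0 in naive CD4, with a median of -0.15 and a range from -0.27 to 0.048. The median was -0.14 both with DESeq2's size factors in edgeR and in DESeq2. Both use the same kind of size factor. Like the main scaling, it takes most genes as unchanged, so these fits are not independent checks of the scaling. In every pair the main scaling factor was larger for naive CD4 than for naive CD8, which lowers naive CD4 values. How much of the small shift comes from scaling was not tested. With coreceptor-sorted cells 58 of 81 were higher in naive CD8. Of 9 tested mitochondrially encoded genes of oxidative phosphorylation, 5 did not pass and 4 were higher in naive CD8 (mt-Nd1 -0.20, mt-Nd2 -0.17, mt-Nd5 -0.15 and mt-Co1 -0.11), with 0 higher in naive CD4, against 22.5% of all genes called. With coreceptor-sorted cells 3 were called, and mt-Nd5 did not pass (-0.096, adjusted p = 0.226), nor did it without the block (adjusted p = 0.100).

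**Figure D4:**
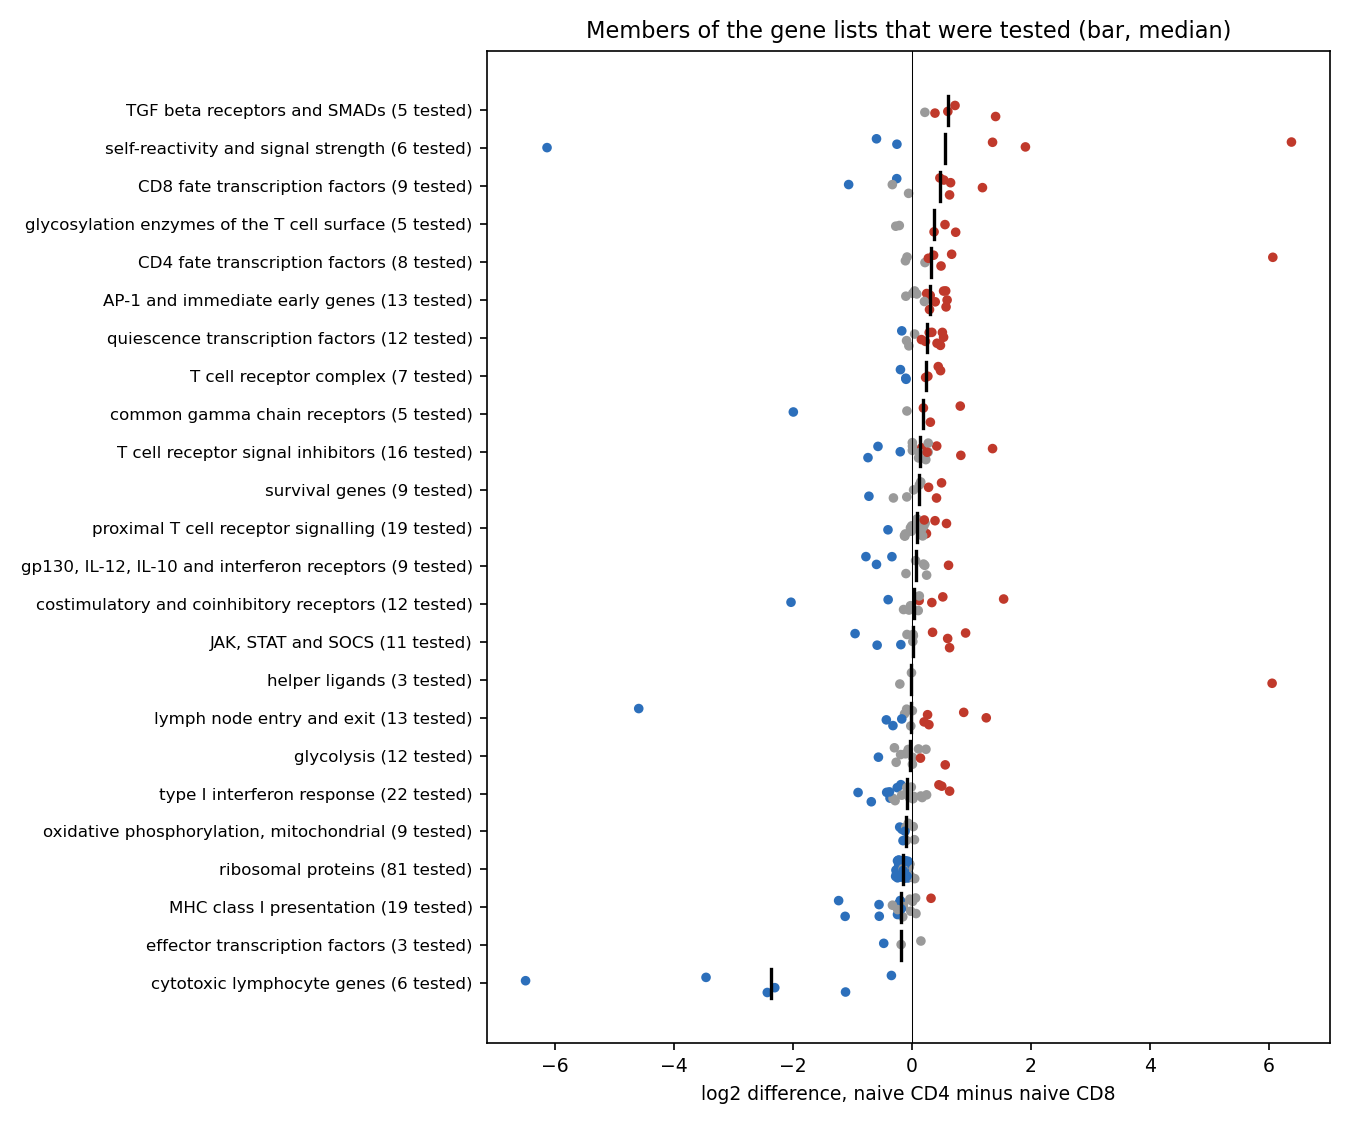
Log2 difference of naive CD4 minus naive CD8 for each tested member of 24 gene lists, in red or blue where adjusted p was below 0.05 and in grey otherwise, with a bar at the median of each list. Cytotoxic genes lie furthest toward naive CD8, and ribosomal protein genes form a narrow cluster at a median of -0.15.

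Depth per cell differed between the classes. Median UMIs per cell in brLN ran from 2657.5 to 3569 (median 2991) in naive CD4 and from 3281 to 4397 (median 3546) in naive CD8, higher in naive CD8 in 7 of 7 mice. The mean log2 difference was -0.23 (exact two-sided sign-flip test over mice, p = 0.0156, the smallest that 7 mice allow). In udLN it was -0.33 in 6 of 6 mice (exact p = 0.0312, again the smallest possible). Genes detected per cell differed by -0.12. With both sums of each pair thinned to equal UMIs, 761 genes differed, and 723 of the 911 were called in the same direction. Whether depth per cell plays a part in the small differences of ribosomal protein genes was not tested.

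Numbers of cells did not separate the lineages by genotype. Naive CD4 cells per naive CD8 cell in brLN were 0.642, 0.700, 1.14 and 1.19 in the Aire-DTR mice 8, 4, 36 and 7, and 0.592, 0.8293 and 1.19 in the WT mice 97, 1 and 6. The groups overlapped over nearly their whole range. Aire-DTR mice had a mean log2 ratio of -0.18 ± 0.46 (SD, n = 4). WT mice had -0.26 ± 0.50 (SD, n = 3), a difference of 0.080 (exact two-sided permutation test, p = 0.857, smallest possible 0.0571). Between nodes of the same mouse the log2 ratio differed by 0.11, udLN minus brLN (exact two-sided sign-flip test over 6 mice, p = 0.594, smallest possible 0.0312). These are shares of sorted cells.

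The lineage difference was then compared between nodes and between genotypes. Between nodes, 2 of 4052 genes passed (0.0494%), a beta V segment and Dapl1. Dapl1, a gene of naive T cells of little-known function, was higher in naive CD8 in every pair. In brLN it was at 222 to 350 CPM in naive CD4 and 322 to 560 CPM in naive CD8, with log2 differences per pair of -1.02 to -0.17 (median -0.50). In udLN it was at 164 to 244 CPM in naive CD4 and 375 to 534 CPM in naive CD8, with -1.46 to -0.61 (median -1.10). The pairs of the 2 nodes overlapped, but in each mouse with both nodes the udLN value was the lower. The brLN and udLN values were closest in mouse 8 (-1.02 and -1.12) and furthest apart in mouse 36 (-0.17 and -1.46). The model of the node comparison did not tie the 2 nodes of a mouse together. The difference between nodes was -0.62 (SE 0.13, adjusted p = 0.0176). It did not pass in DESeq2 (-0.60, adjusted p = 0.887), without the repeated well (-0.67, 0.467), without the block (-0.60, 0.422), without mouse 4 (-0.55, 0.515), without mouse 36 (-0.49, 0.270) or without mouse 97 (-0.60, 0.0539). U2af2 (-0.67, adjusted p = 0.0972) and Fam207a (1.24, adjusted p = 0.218) came next and did not pass.

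Between genotypes, 0 of 5852 genes passed in brLN (0%) in edgeR, where 272 had an unadjusted p below 0.05, and 0 passed in DESeq2. In simulated data with the same design, 47% of genes changed 2-fold and 81% of those changed 4-fold were recovered. The named gene with the smallest p was Rnps1, a splicing factor gene, at -0.85 (adjusted p = 0.197). In udLN, with 4 Aire-DTR and 2 WT mice, 4 of 3222 genes passed (0.124%): 2 beta V segments, Lars2 and the gene model Gm20594. Lars2, which encodes the mitochondrial leucyl-tRNA synthetase, was at 6280 and 6617 CPM in naive CD4 and 3626 and 4355 CPM in naive CD8 of the WT mice 1 and 6. In the Aire-DTR mice it ran from 4938 to 6391 CPM and from 5073 to 6430 CPM. The pair differences were 0.60 and 0.79 in WT and -0.069 to 0.25 in Aire-DTR, without overlap, a difference of -0.68 (SE 0.11, adjusted p = 0.000273). It was lost without WT mouse 1, which leaves 1 WT mouse assumed to vary like the others (-0.60, adjusted p = 0.255), with the rows as deposited (-0.49, adjusted p = 0.0625) and without the block (adjusted p = 0.198). Without the repeated well it was -1.10 (adjusted p = 5.74e-06). In brLN the Lars2 pairs of WT mice (-0.31 to 0.27) and Aire-DTR mice (-0.52 to 0.21) overlapped. Gm20594 was at -0.78 (adjusted p = 0.0110) and was lost in DESeq2 (adjusted p = 0.439), without the block (adjusted p = 0.228), without WT mouse 6 (-0.48, adjusted p = 0.859) and without Aire-DTR mouse 8 (adjusted p = 0.0798). Rabggtb (-2.76, adjusted p = 0.0762) did not pass.

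**Figure D5:**
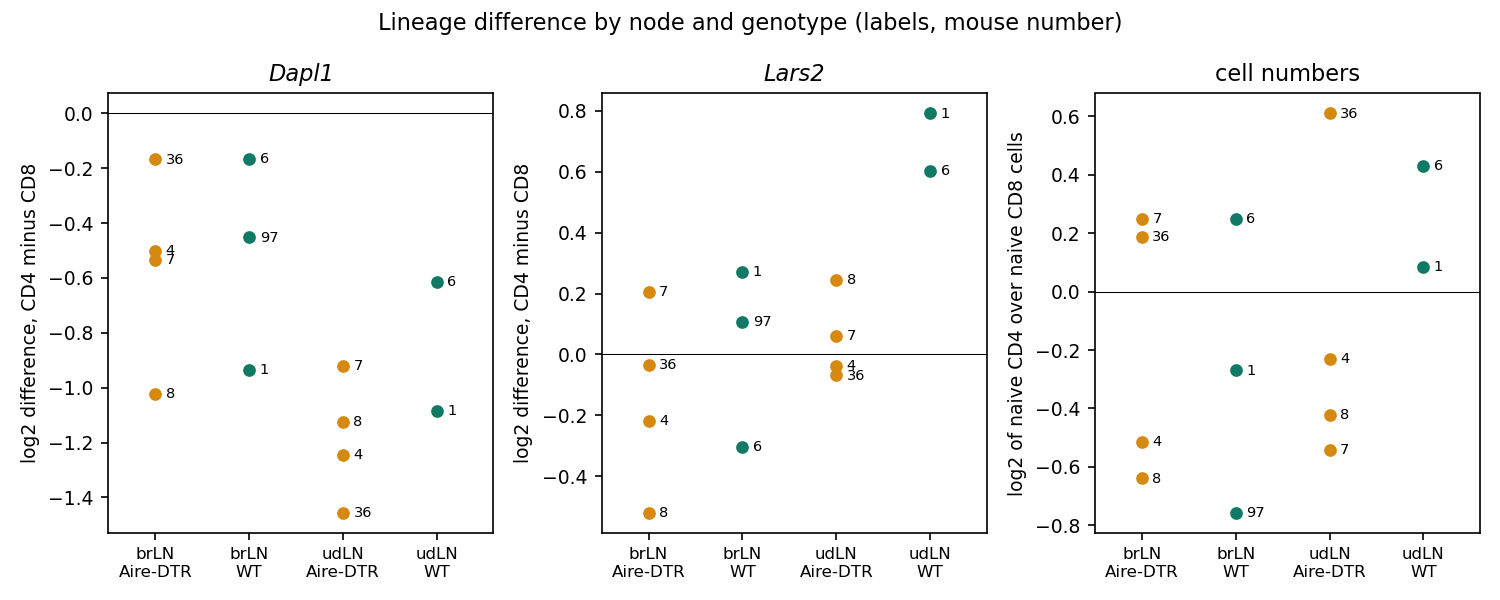
Left and middle, log2 difference of naive CD4 minus naive CD8 per mouse for Dapl1 and Lars2 by node and genotype, and right, the log2 ratio of naive CD4 to naive CD8 cells, with mouse numbers beside the points. Dapl1 differences lie lower in udLN than in brLN with overlap, the 2 WT udLN pairs of Lars2 lie at 0.60 and 0.79, and cell ratios overlap between genotypes.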

How the data were processed

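Droplet-based 3' single-cell RNA sequencing was made from lymph node cells of 7 mice in 6 wells. The authors deposited raw UMI counts per cell and gene, with a table of each cell's mouse, node, genotype, pool and cell type. The submitters' processing notes name build GRCm38, Seurat, Scanpy 1.7.0, bustools 0.40.0 and kallisto 0.46.1. How cells were filtered and named, and whether doublets were removed, is not given in the sources used here, and no further doublet removal was made.

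The repeated well was counted once, a choice made after seeing the data. Counts were summed per mouse, node and class (at least 20 cells), passed through filterByExpr with TMM scaling, and tested in R 4.3.3 by edgeR 4.0.16 (glmQLFit and glmQLFTest), with mouse and node as a block, since both lineages of a pair come from 1 animal and node. The threshold was a Benjamini-Hochberg adjusted p of 0.05. Each SE was derived from the F statistic and the log2 difference, and rests on a spread moderated over genes. Interactions with node or genotype were added to this model. DESeq2 1.42.0 was an alternative. CPM values are scaled counts. Intervals cover counting error only.

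The cell classes and 25 gene lists were chosen with earlier results of these data known. Named were 15 fixed genes, up to 12 called genes in each direction by size (log2 CPM above 4, on 1 side in every pair, no receptor segments or unnamed models), up to 4 members of each list by p, and the 5 smallest p of each interaction. Other list members were named after their values were seen. Receptor segments were counted and not named. Scripts were tested on simulated data, where 99% of 2-fold and 96% of 4-fold lineage differences were recovered. Promoters are from RefSeq (GRCm38.p6), 250 bases before the start, and coordinates from GENCODE release 21 of the mouse series by symbol. The authors' scaled matrices were not used, and some genes are not reported here.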

Additional observations from a re-analysis of the deposited data

Results flagged for a closer look

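In 208 sets of values, each of 6 or 7 pairs of 1 node, 15 had 1 pair far from the rest by Dixon's criterion, which chance alone would meet in about 1 of 20 sets. Of these 15, 12 were pairs of WT mouse 6, whose sums were among the smallest, and what its share in them reflects was not tested. In brLN, mouse 6 stood apart for Il2rb (log2 difference -4.72, the other pairs -2.69 to -1.39), Nkg7 (-7.57, others -6.28 to -5.70), Foxo1 (-0.15, others 0.30 to 0.60), Rasgrp1 (-0.27, others 0.55 to 1.13), Tespa1 (0.77, others 0.21 to 0.43), Dgka (0.97, others 0.29 to 0.56), Skil (2.32, others 0.18 to 0.82), Pim1 (2.00, others 0.43 to 0.96) and mt-Co1 (0.030, others -0.18 to -0.12). In udLN it stood apart for Cd5 (2.88, others 0.94 to 1.16), Ehd1 (-4.31, others -2.84 to -2.19) and Gpr183 (2.18, others 0.84 to 1.34). The other 3 were Cflar in brLN of mouse 8 (-0.60, others 0.064 to 0.34), Id2 in udLN of mouse 8 (0.69, others -1.01 to -0.39) and Tgfbr2 in udLN of mouse 36 (0.77, others 0.033 to 0.28).

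The lineage difference itself changed between groups, by the test of that change, for 6 genes. Between nodes these were Dapl1 (-0.62) and 1 beta V segment (-2.58). Between genotypes in udLN they were Lars2 (-0.68), Gm20594 (-0.78) and 2 other beta V segments (4.82 and -1.29).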

How the results depend on the processing

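The block mattered for the paired design: without the pairing of lineages by mouse and node, 755 genes differed between lineages in place of 911, and 0 and 0 genes passed for the node comparison and for genotype in udLN. Between lineages the count was 590 in DESeq2, 518 with cells sorted by coreceptor UMIs, 384 in udLN alone, 188 in pool 1 and 385 in pool 2 (fewer samples in the last 3), and 729 to 971 with a mouse left out. Of the 911 genes, all 911 kept their direction in DESeq2, without the block and with 1 sum per mouse. Between nodes 2 genes passed, 0 in DESeq2, 0 without the repeated well, 6 without a filter on low counts, and 1 to 3 with a mouse left out. For genotype in brLN 0 passed, 2 with the rows as deposited, 4 without the filter and 0 to 3 with a mouse left out. For genotype in udLN 4 passed, 1 in DESeq2, 2 with the rows as deposited and 2 to 4 with a mouse left out. The log2 difference of the cell ratio between genotypes (0.080) ran from -0.17 to 0.33 with a mouse left out and turned without mouse 7 (-0.063), 36 (-0.043) or 97 (-0.17). For single genes, 2103 of the results kept direction and call, 147 lost the call and 2 turned, Cflar in pool 1 (-0.067) and Ldha in pool 2 (-0.036). A beta V segment of the udLN genotype comparison ran from -0.36 (without mouse 1) to 4.99 with a mouse left out. The cause was not tested. Use of the deposited rows and removal of the repeated well were chosen after seeing the data. Low counts limit the result: 14125 genes were measured and 4052 tested, and in udLN only 26% of 2-fold changes with genotype were recovered in simulated data.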

Other observations

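Within naive CD4 cells, those with a Ly6c1 UMI (524 cells) and those without (1179 cells) differed in other genes of the signal strength list. The median depth was close, at 2923 and 2890 UMIs per cell. Per mouse, Cd5 was at 134 to 313 CPM (median 180) in cells with a Ly6c1 UMI and at 265 to 396 CPM (median 365) in cells without, lower with Ly6c1 in 7 of 7 mice. The mean log2 difference of CPM plus 10 was -0.74 ± 0.38 (SD, n = 7; exact two-sided sign-flip test, p = 0.0156, adjusted over 8 genes 0.0417). Izumo1r was at 50.9 to 129 CPM (median 68.3) with and 131 to 183 CPM (median 150) without a Ly6c1 UMI, also lower in 7 of 7 mice (-0.97 ± 0.53, SD, n = 7; exact p = 0.0156, adjusted 0.0417). Nr4a3 had the same exact p but only 16 UMIs in all. With Nr4a3 left out, Cd5 and Izumo1r were each at 0.0547 after adjustment over the other 7 genes and did not pass. For Nr4a1, Egr1, Egr2, Cd69 and Ifngr1 the exact p-values were 0.656, 0.812, 1, 0.953 and 0.672. A cell without a Ly6c1 UMI may still express the gene, so the 2 sets are mixed. This comparison was chosen after the lineage results were seen.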
